A study of Mus musculus with 9 samples.

Results

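The transcripts described here encode the subunits of the AMPA receptors, Gria1 to Gria4, and of the kainate receptors, Grik1 to Grik5, in the brains of 3 mouse strains. All probe sets that the platform annotation assigned to these genes alone were taken, which gave 9 of the 18193 genes named on the array and 18 probe sets. Of these probe sets, 10 belonged to AMPA and 8 to kainate receptor subunits. Gria2 and Gria4 had 3 probe sets each, Grik4 and Grik5 had 1 each, and the remaining 5 genes had 2 each. A probe set is a group of short oligonucleotides that reads part of the transcripts of a gene, and an ending in "_a_at" marks one that reads several transcripts of the same gene. Probe sets of 1 gene were kept apart throughout, because they can read different transcript forms.

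The strains were B6By.C.132.54, BALB/cJ and C57BL/6ByJ, each with 3 Affymetrix Mouse Genome 430 2.0 arrays, or 9 arrays in all. The labels call all 3 strains inbred. The name of B6By.C.132.54 marks a C57BL/6By background with a contribution of BALB/c, and the size and place of that contribution were not given in the labels. All mice were untreated males, 11 ± 1 weeks old, and each array held RNA pooled from 10 brain hemispheres without cerebellum, so that 30 mice per strain and 90 mice in total were used. The work was carried out in 3 batches that each included every strain. The p-values below measure the spread between pools of mice. In the main test this spread also holds any difference between replicate numbers. A hemisphere mixes cortex, hippocampus, striatum, thalamus and other regions, so a change within 1 region can be diluted. Array medians were close, at intensities of 15.49 to 15.99. The spread of values was narrowest on B6By.C.132.54 replicate 3, with an interquartile range of 2.731 on the log2 scale against up to 2.982 on the other arrays, and the lowest mean correlation with the other arrays of its strain (0.988). Markers were set beside the tissue label. The brightest probe sets of 7 pan-neuronal genes averaged 8.39 to 11.00 log2 intensity, whereas the cerebellar granule and Purkinje cell genes Pcp2 (3.75), Gabra6 (3.24), Cbln3 (3.74) and Car8 (3.77) were under 3.968, the array-wide median (the median of the mean log2 intensity over all probe sets). Cbln1, which is also transcribed outside the cerebellum, measured 6.59. Of 5 hippocampal genes, Prox1 (3.20), Dsp (3.03) and Lct (3.42) were under the array-wide median too, and Wfs1 (7.66) and Bok (7.07) were above it. Low values of the cerebellar genes therefore cannot show that cerebellum was absent.

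AMPA and kainate receptors are ionotropic glutamate receptors, cation channels built of 4 subunits that open when glutamate binds. AMPA receptors carry most fast excitatory transmission in the brain, and their number at the synapse is adjusted during synaptic plasticity. Their subunits combine as homomers or heteromers, and Gria2, whose transcript is edited at a glutamine codon in the pore, makes the channel nearly impermeable to calcium. Kainate receptors act on both sides of the synapse and tune transmitter release and excitability. Grik1, Grik2 and Grik3 form channels by themselves, whereas Grik4 and Grik5 have high affinity for kainate and need 1 of the other 3 to reach the membrane as a functional channel.

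The 250 bases before the transcription start of Gria2, Gria4, Grik3 and Grik5 are shown because each of these genes had a probe set that differed by replicate number, as described further on, and because the RefSeq table held their promoters. Sequences are from RefSeq, build GRCm38.p6, written 5′ to 3′ on the strand of the gene, with matches to the motifs below in capitals. Gria2 lies at chr3:80802836-80803085 on the minus strand, Gria4 at chr9:4796235-4796484 on the minus strand, Grik3 at chr4:125490446-125490695 on the plus strand and Grik5 at chr7:25072370-25072619 on the minus strand.
Gria2: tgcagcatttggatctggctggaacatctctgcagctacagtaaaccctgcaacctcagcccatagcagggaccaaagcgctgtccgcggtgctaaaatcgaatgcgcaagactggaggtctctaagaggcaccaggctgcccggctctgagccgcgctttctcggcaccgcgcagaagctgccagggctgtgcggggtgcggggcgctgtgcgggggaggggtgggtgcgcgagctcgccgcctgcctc
Gria4: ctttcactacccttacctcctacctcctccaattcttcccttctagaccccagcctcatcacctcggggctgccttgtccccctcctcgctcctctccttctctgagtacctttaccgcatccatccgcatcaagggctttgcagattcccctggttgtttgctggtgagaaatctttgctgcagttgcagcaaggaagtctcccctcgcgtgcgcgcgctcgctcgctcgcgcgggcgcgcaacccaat
Grik3: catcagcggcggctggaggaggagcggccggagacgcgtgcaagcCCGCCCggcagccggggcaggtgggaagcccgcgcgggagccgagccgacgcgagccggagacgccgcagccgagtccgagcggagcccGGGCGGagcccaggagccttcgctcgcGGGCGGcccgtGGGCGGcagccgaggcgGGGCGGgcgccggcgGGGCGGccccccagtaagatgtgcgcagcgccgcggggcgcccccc
Grik5: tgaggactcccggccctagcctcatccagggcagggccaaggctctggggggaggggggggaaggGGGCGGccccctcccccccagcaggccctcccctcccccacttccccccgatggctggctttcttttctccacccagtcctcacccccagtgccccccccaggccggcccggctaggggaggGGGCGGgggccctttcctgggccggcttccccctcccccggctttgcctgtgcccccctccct
The table held 6 of the 9 promoters, those of Gria2, Gria4, Grik2, Grik3, Grik4 and Grik5. Each was searched on both strands for the GC box GGGCGG, which is read by Sp1, and the TATA box TATAAA. GC boxes stood in the promoters of Grik3 (6 matches), Grik5 (2 matches) and Grik4 (1 match), and in 32.7% of all promoters. No match to the TATA box (12.4% of all promoters) was present in these windows, and the windows of Gria2 and Gria4 held neither motif. The share of G and C was 64.8% for Gria2, 58.8% for Gria4, 82.0% for Grik3 and 75.2% for Grik5, beside a median of 52.4% over all promoters.

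The strain comparisons ask which transcripts differ between the strains. Between BALB/cJ and C57BL/6ByJ, 1 of the 18 probe sets passed the test (limma, two-sided, Benjamini-Hochberg adjusted p under 0.05 over all 45037 probe sets), where 1.43% of all probe sets passed. It was 1439987_at of Grik1, lower in BALB/cJ, and with the replicate number as a block it was again the 1 that passed (2.12% of all probe sets). The median log2 difference of the 18 was -0.08, against 0.018 over all probe sets, and 12 of the 18 lay below 0, as did 43.8% of all. With the replicate number as a block, the median was again -0.08, with 12 below 0. The sign of the median changed in some fits without 1 array. These fits had no block, so the strains in them no longer held the same replicate numbers. They therefore cannot show whether the direction rested on single arrays. The median was 0.04, with 9 below 0, without C57BL/6ByJ replicate 1, and 0.02, with 8 below 0, without BALB/cJ replicate 2 or without BALB/cJ replicate 3. In 5 of the 18 every BALB/cJ array lay below every C57BL/6ByJ array, which held for 5.95% of all probe sets, and in none did every BALB/cJ array lie above. Separation in either direction held for 12.6% of all probe sets.

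Between B6By.C.132.54 and C57BL/6ByJ, no receptor subunit passed the test, and 0.0% of all probe sets did. At an unadjusted p under 0.05, limma picked 1751 of all probe sets and 0 of the 18, and with the replicate number as a block it picked 3349 and 2. These were Gria3 1434728_at (-0.28, unadjusted p = 0.00736) and Grik3 1440177_at (-0.22, unadjusted p = 0.0251), both with a limma adjusted p of 0.658. The differences were small but mostly of 1 sign. All 10 AMPA receptor probe sets and 15 of the 18 probe sets were lower in B6By.C.132.54, where 53.9% of all probe sets were, with a median log2 difference of -0.15 for the 18 and -0.013 over all. This direction was not particular to the receptors, since the brightest probe sets of the 7 pan-neuronal genes differed by -0.16 to -0.05 (median -0.13). With dim probe sets left out, the median was -0.14 for the 14 subunit probe sets kept and -0.057 over all. After quantile normalization it was -0.09 for the 18 and -6.1e-05 over all. Without C57BL/6ByJ replicate 1, 8 of the 10 and 11 of the 18 lay below 0, with a median of -0.06. Without B6By.C.132.54 replicate 3, 9 of the 10 and 14 of the 18 did, with a median of -0.05, and without C57BL/6ByJ replicate 3 these counts were again 9 and 14. In 1 probe set, 1435722_at of Gria4, every B6By.C.132.54 array lay below every C57BL/6ByJ array, and 3.54% of all probe sets were separated that way, or 6.62% in either direction.

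Between B6By.C.132.54 and BALB/cJ, 1 of the 18 probe sets passed (1.28% of all probe sets did), again 1439987_at of Grik1, higher in B6By.C.132.54 as were 0.713% of all. With the replicate number as a block the count was the same (1.85% of all probe sets). The arrays of both strains did not overlap in 2 of the 18, and in 9.51% of all probe sets. The median log2 difference of the 18 was -0.09, against -0.024 over all. The median was of the opposite sign without B6By.C.132.54 replicate 3 (0.04) and without BALB/cJ replicate 1 (0.02), and in each case 8 instead of 11 of the 18 lay below 0. Each strain enters 2 of the 3 comparisons, so they are not independent of each other.

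**Figure D1:**
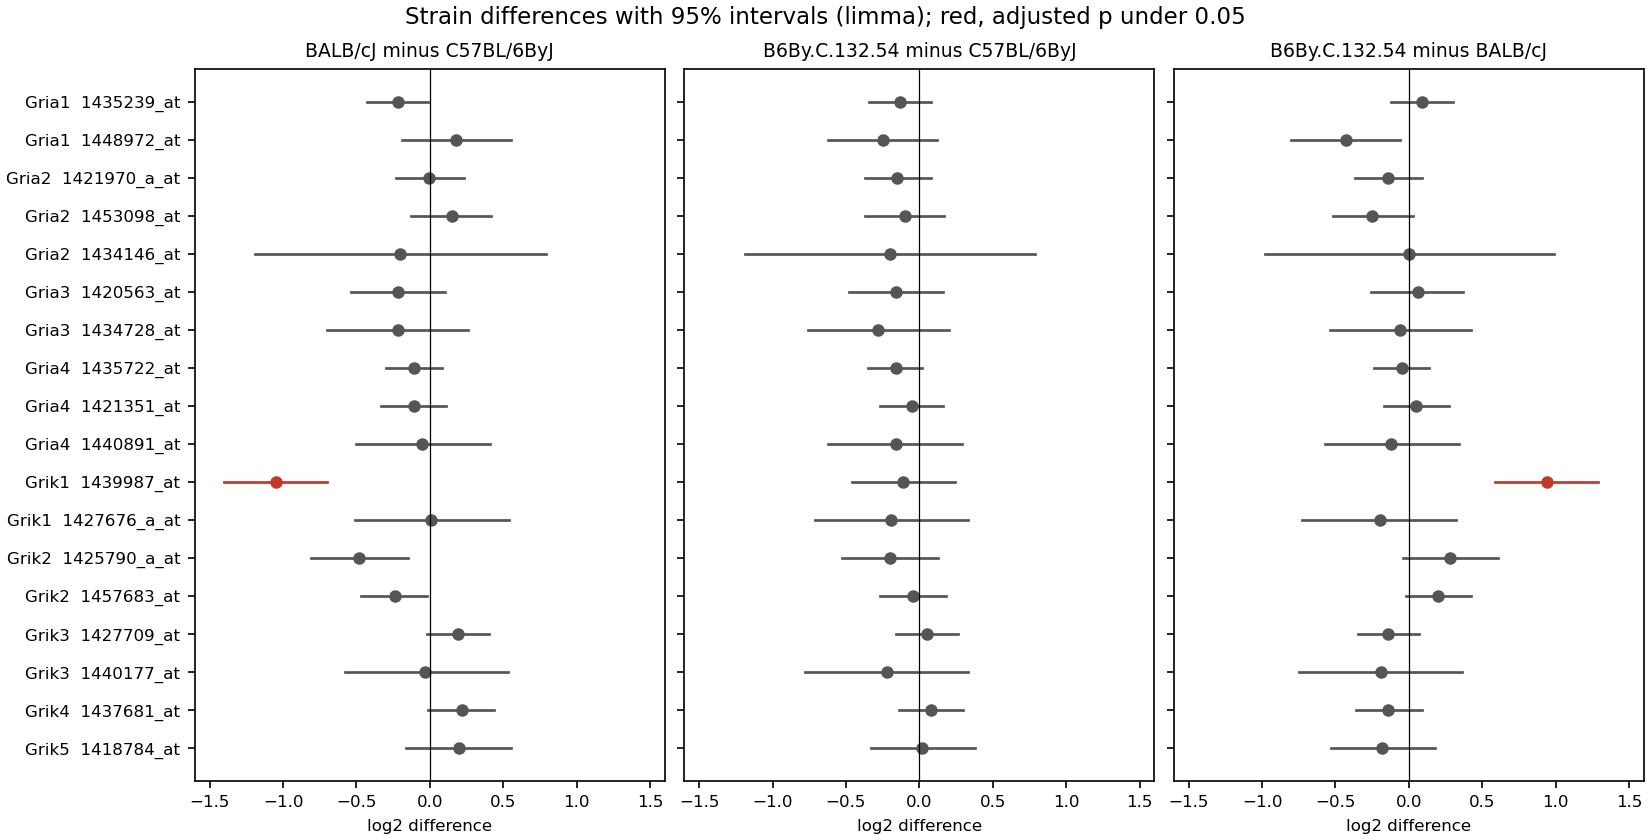
Log2 differences between strains (x axis, points) with 95% intervals from limma (lines) for the 18 probe sets (y axis), with 1 panel per strain pair. Only Grik1 1439987_at passed the adjusted threshold (red), at -1.05 for BALB/cJ minus C57BL/6ByJ and 0.94 for B6By.C.132.54 minus BALB/cJ, and the wide interval of Gria2 1434146_at covers 0 in all 3 panels.

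Gria1, on chromosome 11, encodes the subunit whose phosphorylation and insertion at synapses accompany long-term potentiation. Its brighter probe set, 1435239_at, measured 8.59, 8.71 and 8.46 log2 intensity in B6By.C.132.54, 8.55, 8.48 and 8.46 in BALB/cJ, and 8.71, 8.83 and 8.62 in C57BL/6ByJ. All BALB/cJ arrays were below all C57BL/6ByJ arrays, and B6By.C.132.54 overlapped both. The log2 difference of BALB/cJ from C57BL/6ByJ was -0.22 (SE 0.09, limma adjusted p = 0.6) and did not pass. The other probe set, 1448972_at, ordered the strains differently. It measured 8.20, 8.60 and 8.02 log2 intensity in B6By.C.132.54, 8.80, 8.69 and 8.62 in BALB/cJ, and 8.60, 8.19 and 8.77 in C57BL/6ByJ, with BALB/cJ the highest on average. B6By.C.132.54 lay below BALB/cJ on every array, a separation found in 5.72% of all probe sets, but the log2 difference of -0.43 (SE 0.17, limma adjusted p = 0.532) did not pass. The log2 difference between both Gria1 probe sets on an array was tested as well. For 1435239_at minus 1448972_at it differed by -0.40 between BALB/cJ and C57BL/6ByJ (SE 0.18, limma adjusted p = 0.648) and by 0.52 between B6By.C.132.54 and BALB/cJ (SE 0.18, limma adjusted p = 0.367), and neither difference passed after adjustment.

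Gria2, on chromosome 3, had the brightest probe set of the family. Its probe set 1421970_a_at measured 9.96, 10.03 and 9.65 log2 intensity in B6By.C.132.54, 10.09, 9.96 and 10.02 in BALB/cJ, and 10.02, 10.04 and 10.02 in C57BL/6ByJ, at the 99.0th percentile of all probe sets by mean level. The strains overlapped, and the lowest of the 9 values was that of B6By.C.132.54 replicate 3. BALB/cJ differed from C57BL/6ByJ by -0.0039 (95% interval -0.23 to 0.23) on the log2 scale and B6By.C.132.54 from C57BL/6ByJ by -0.15 (-0.37 to 0.08). Strain effects within these intervals remain compatible with the values. Probe set 1453098_at averaged 7.16 ± 0.18 log2 intensity in B6By.C.132.54, 7.41 ± 0.06 in BALB/cJ, against 7.27 ± 0.21 in C57BL/6ByJ (SD, n = 3 each), and no pair passed. The remaining Gria2 probe set, 1434146_at, varied by 1.53 on the log2 scale over the 9 arrays with strain means of 7.01, 7.00 and 7.20 in B6By.C.132.54, BALB/cJ and C57BL/6ByJ, and it is taken up with the replicate numbers below.

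Gria3, on the X chromosome, is a partner of Gria2 in many forebrain receptors. Probe set 1420563_at measured 6.86, 7.33 and 7.11 log2 intensity in B6By.C.132.54, 6.97, 7.02 and 7.14 in BALB/cJ, and 7.14, 7.09 and 7.55 in C57BL/6ByJ. The strains overlapped, with C57BL/6ByJ replicate 3 the highest array, and no neighbours in the order C57BL/6ByJ, B6By.C.132.54, BALB/cJ differed beyond their spread (limma adjusted p of 0.859 to 0.969 over the 3 pairs). Its other probe set, 1434728_at, averaged 6.13 ± 0.31 log2 intensity in B6By.C.132.54, 6.19 ± 0.41 in BALB/cJ, against 6.41 ± 0.28 in C57BL/6ByJ (SD, n = 3 each).

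Gria4, on chromosome 9, gives receptors with fast kinetics and is prominent in interneurons and in thalamus. Probe set 1435722_at measured 7.82, 8.01 and 7.85 log2 intensity in B6By.C.132.54, 7.90, 8.02 and 7.92 in BALB/cJ, and 8.03, 8.03 and 8.11 in C57BL/6ByJ. The 3 C57BL/6ByJ arrays were above the other 6, by a small margin. The log2 differences from C57BL/6ByJ were -0.16 for B6By.C.132.54 (SE 0.09, limma adjusted p = 0.915) and -0.11 for BALB/cJ (SE 0.09, limma adjusted p = 0.902), and neither passed. Probe set 1421351_at was dimmer, with means of 4.68, 4.62 and 4.73 log2 intensity in B6By.C.132.54, BALB/cJ and C57BL/6ByJ. Probe set 1440891_at averaged 3.08, 3.20 and 3.25 in the same order of strains, under the array-wide median, a range in which signal is hard to tell from background.

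**Figure D2:**
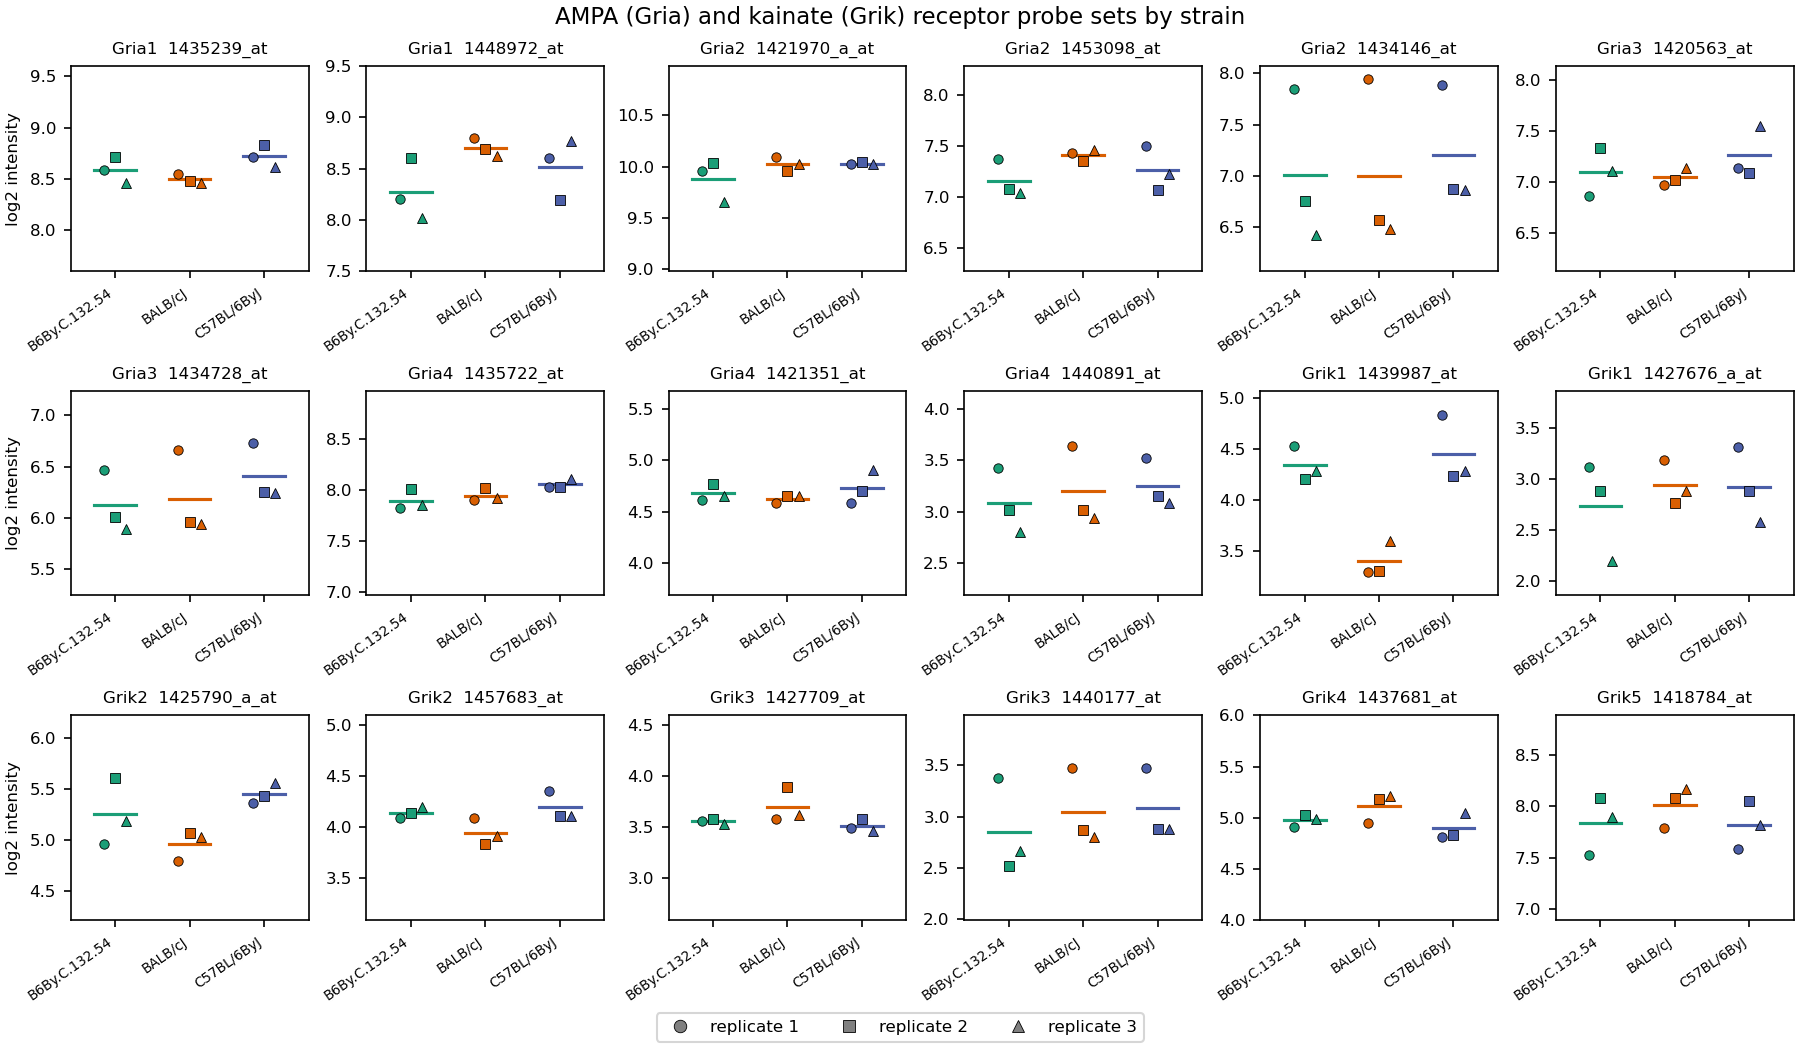
Log2 intensity (y axis) of each of the 18 probe sets in the arrays of B6By.C.132.54, BALB/cJ and C57BL/6ByJ (x axis), with 1 point per array, the marker giving the replicate number and the bar the strain mean; each panel has its own range of values. In Gria2 1434146_at the replicate 1 arrays of all 3 strains lie between 7.85 and 7.95 and the other 6 between 6.42 and 6.87, while in Grik1 1439987_at the BALB/cJ arrays lie apart, between 3.30 and 3.60.

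Among the kainate receptor genes, Grik1, on chromosome 16, encodes a subunit known from GABAergic interneurons and sensory pathways. Probe set 1439987_at measured 4.53, 4.21 and 4.29 log2 intensity in B6By.C.132.54, 3.30, 3.31 and 3.60 in BALB/cJ, and 4.83, 4.24 and 4.29 in C57BL/6ByJ. All BALB/cJ arrays were below all 6 others, and B6By.C.132.54 overlapped C57BL/6ByJ. BALB/cJ was lower than C57BL/6ByJ by a log2 difference of -1.05 (SE 0.16, 95% interval -1.40 to -0.70, limma adjusted p = 0.00577), and B6By.C.132.54 was higher than BALB/cJ by 0.94 (SE 0.16, 95% interval 0.59 to 1.29, limma adjusted p = 0.0127). B6By.C.132.54 differed from C57BL/6ByJ by -0.11 (95% interval -0.46 to 0.24), within the error. The BALB/cJ mean of 3.41 was under the array-wide median of 3.968, where signal is hard to tell from background, so the size of the difference is uncertain. Fewer cells with the transcript and less transcript per cell cannot be told apart in bulk tissue. The oligonucleotide sequences of this probe set were not available, so whether its lower signal in BALB/cJ reflects less transcript was not tested.

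The call between BALB/cJ and C57BL/6ByJ held without each array in turn, and was lost when 16 was added to all intensities before the log, where the log2 difference was -0.52 (limma adjusted p = 0.0549). With the same addition the difference between B6By.C.132.54 and BALB/cJ was 0.45 and did not pass (limma adjusted p = 0.107). The call between B6By.C.132.54 and BALB/cJ was also lost without BALB/cJ replicate 1 (0.0656), BALB/cJ replicate 2 (0.0821) or B6By.C.132.54 replicate 1 (0.0565), as limma adjusted p-values, although the log2 difference stayed between 0.85 and 1.04 over all arrays left out.

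The other Grik1 probe set, 1427676_a_at, was too dim to show whether a drop like that of 1439987_at occurred in it. It measured 3.12, 2.88 and 2.20 log2 intensity in B6By.C.132.54, 3.18, 2.76 and 2.88 in BALB/cJ, and 3.31, 2.88 and 2.58 in C57BL/6ByJ, with the strains overlapping and all values under the array-wide median. BALB/cJ differed from C57BL/6ByJ by 0.01 (95% interval -0.51 to 0.54) on the log2 scale. On each array the difference of 1439987_at minus 1427676_a_at was 1.41, 1.34 and 2.10 in B6By.C.132.54, 0.12, 0.56 and 0.72 in BALB/cJ, and 1.52, 1.36 and 1.71 in C57BL/6ByJ. BALB/cJ was thus lower on every array. A probe set so near background cannot follow a drop, so these differences mainly restate those of 1439987_at and do not show that the probe sets diverged. In the test, this difference within Grik1 changed by -1.06 (SE 0.21, limma adjusted p = 0.0256) between BALB/cJ and C57BL/6ByJ, where 1.45% of 25762 such contrasts passed, and by 1.14 (SE 0.21, limma adjusted p = 0.0159) between B6By.C.132.54 and BALB/cJ, where 1.46% did. For the change between BALB/cJ and C57BL/6ByJ, the limma adjusted p was above 0.05 without any 1 of C57BL/6ByJ replicates 1 to 3 (0.0942, 0.0628 and 0.125) or of BALB/cJ replicates 1 and 2 (0.104 and 0.0859), while the change itself lay between -0.89 and -1.19 over all arrays left out. The change between B6By.C.132.54 and BALB/cJ missed the threshold without BALB/cJ replicate 1 (0.97, limma adjusted p = 0.0684) or 2 (1.19, limma adjusted p = 0.0581).

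**Figure D3:**
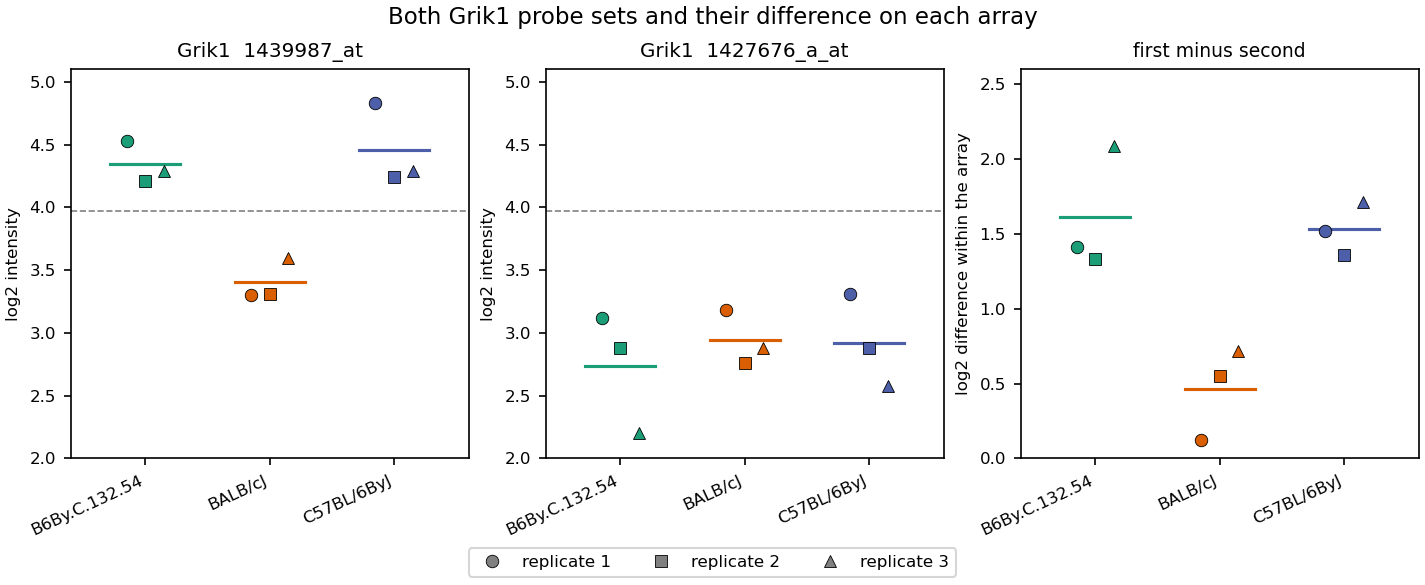
Log2 intensity of both Grik1 probe sets (left and middle, y axis; the dashed line is the array-wide median, 3.968) and the log2 difference of 1439987_at minus 1427676_a_at on each array (right) in the 3 strains (x axis), with 1 point per array and bars at the strain means. The BALB/cJ arrays are apart in the left and right panels, where their within-array differences of 0.12 to 0.72 lie below all others, and overlap in the middle panel, where all arrays lie under the dashed line.

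The genes whose profile over the 9 arrays was most like that of Grik1 1439987_at were Gm26782 on chromosome 14, Zfp874a on chromosome 13, which encodes a zinc finger protein, and Pop4 on chromosome 7, which encodes a subunit of ribonuclease P. Likeness was the root mean square difference between both profiles, each centred on its own mean, and came to 0.127, 0.164 and 0.176 on the log2 scale beside a median of 0.534 over all candidate probe sets. Gm26782 averaged 4.69 ± 0.18, 3.70 ± 0.12 and 4.74 ± 0.22 log2 intensity in B6By.C.132.54, BALB/cJ and C57BL/6ByJ (SD, n = 3 each). Its low BALB/cJ values follow from its choice by likeness to Grik1 1439987_at.

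Grik2, on chromosome 10, encodes the principal kainate receptor subunit of hippocampal pyramidal cells and is edited in the pore like Gria2. Probe set 1425790_a_at measured 4.96, 5.61 and 5.19 log2 intensity in B6By.C.132.54, 4.80, 5.07 and 5.03 in BALB/cJ, and 5.36, 5.43 and 5.56 in C57BL/6ByJ. The BALB/cJ arrays were below the C57BL/6ByJ arrays without overlap, and B6By.C.132.54 spanned both strains. The log2 difference of BALB/cJ from C57BL/6ByJ was -0.48 (SE 0.15, 95% interval -0.81 to -0.15), with an unadjusted p of 0.00818 and a limma adjusted p of 0.277, so it did not pass. The second Grik2 probe set, 1457683_at, averaged 4.14 ± 0.05 log2 intensity in B6By.C.132.54, 3.94 ± 0.13 in BALB/cJ, against 4.19 ± 0.14 in C57BL/6ByJ (SD, n = 3 each). It gave the same order of strains, again with no overlap of BALB/cJ with C57BL/6ByJ, at a log2 difference of -0.24 (limma adjusted p = 0.57).

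Grik3, on chromosome 4, encodes a subunit of low glutamate sensitivity. Both of its probe sets averaged less than the array-wide median. Probe set 1427709_at measured 3.56, 3.58 and 3.53 log2 intensity in B6By.C.132.54, 3.58, 3.89 and 3.62 in BALB/cJ, and 3.49, 3.58 and 3.46 in C57BL/6ByJ, and the strains overlapped. Probe set 1440177_at averaged 2.85 ± 0.46, 3.05 ± 0.38 and 3.08 ± 0.35 log2 intensity in B6By.C.132.54, BALB/cJ and C57BL/6ByJ (SD, n = 3 each).

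Grik4, on chromosome 9, and Grik5, on chromosome 7, encode the high-affinity subunits. Grik4 1437681_at measured 4.91, 5.03 and 4.99 log2 intensity in B6By.C.132.54, 4.95, 5.18 and 5.21 in BALB/cJ, and 4.81, 4.83 and 5.05 in C57BL/6ByJ. Grik5 1418784_at measured 7.53, 8.08 and 7.90 log2 intensity in B6By.C.132.54, 7.79, 8.08 and 8.17 in BALB/cJ, and 7.58, 8.05 and 7.82 in C57BL/6ByJ. For both genes BALB/cJ had the highest mean and the strains overlapped. The log2 differences of BALB/cJ from C57BL/6ByJ were 0.22 for Grik4 (SE 0.10, limma adjusted p = 0.686) and 0.20 for Grik5 (SE 0.16, limma adjusted p = 0.919), and neither passed. In Grik5 the lowest array of each strain was replicate 1.

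Replicate number also separated other probe sets of the family. Deviations of arrays with the same replicate number went together in all 9 pairs of arrays from different strains, so replicate 1 was compared with the mean of replicates 2 and 3 within strains. This comparison was chosen after the data had been seen. With strain in the model, 6 of the 18 probe sets (33.3%) passed (limma adjusted p under 0.05), 5 higher and 1 lower in replicate 1, where 4.18% of all probe sets passed, 2.80% higher and 1.38% lower. In these 6 probe sets the replicate number held between 70.9% and 95.1% of the sum of squares over the 9 arrays, which the choice of probe sets by this test makes high. The median share of the replicate number was 35.6% over the 18 probe sets and 30.3% over all probe sets, and that of the strain 33.6% and 23.1%. In Grik1 1439987_at, which was also picked by a test, the strain held 86.0%.

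The Gria2 probe set 1434146_at was the clearest case. It measured 7.85, 7.95 and 7.89 log2 intensity in the replicate 1 arrays of B6By.C.132.54, BALB/cJ and C57BL/6ByJ. The 6 arrays of replicates 2 and 3 measured 6.75 and 6.42 in B6By.C.132.54, 6.57 and 6.48 in BALB/cJ, and 6.87 and 6.86 in C57BL/6ByJ, so replicate 1 was above both others in every strain without overlap. Replicate 1 was higher by 1.24 on the log2 scale, or 2.36-fold (SE 0.09, limma adjusted p = 9.97e-05), and replicate number held 95.1% of the sum of squares against 2.45% for strain. The brightest Gria2 probe set, 1421970_a_at, differed by 0.07 (limma adjusted p = 0.715), and the log2 level of 1434146_at relative to the other Gria2 probe sets was 1.09 higher in replicate 1 (limma adjusted p = 0.000194), where 6.73% of all such contrasts passed.

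Of 16 within-gene contrasts of the family, 11 passed by replicate number, where 6.73% of all such contrasts did. They belonged to Gria2, Gria3, Gria4, Grik2 and Grik3. In a gene with 2 probe sets both contrasts are 1 test with opposite signs, and in a gene with 3 they share probe sets. The 16 are therefore not independent tests. Gria3 1434728_at measured 6.47, 6.66 and 6.73 log2 intensity in replicate 1 of B6By.C.132.54, BALB/cJ and C57BL/6ByJ, and between 5.89 and 6.25 in the other 6 arrays, a rise of 0.57 in replicate 1, or 1.49-fold (limma adjusted p = 0.00198). Its partner 1420563_at differed by -0.21 (limma adjusted p = 0.326). Gria4 1440891_at measured 3.43 to 3.64 log2 intensity in the replicate 1 arrays and 2.80 to 3.15 in the other 6, a log2 difference of 0.53 (limma adjusted p = 0.00361). Neither range overlapped the other for these genes.

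Grik3 1440177_at measured 3.38, 3.48 and 3.48 log2 intensity in replicate 1 of B6By.C.132.54, BALB/cJ and C57BL/6ByJ and 2.52 to 2.88 in the other 6 arrays, a log2 difference of 0.68 (limma adjusted p = 0.000726). Grik3 1427709_at differed by -0.07 (limma adjusted p = 0.704). Relative to the other probe sets of their genes, Gria3 1434728_at (0.78), Gria4 1440891_at (0.63) and Grik3 1440177_at (0.75) rose in replicate 1, with limma adjusted p-values of 0.00136, 0.00163 and 0.000573. Grik2 1457683_at rose by 0.40 relative to 1425790_a_at (limma adjusted p = 0.0445), although neither Grik2 probe set passed by itself. The dim Grik1 probe set 1427676_a_at was 0.51 higher on the log2 scale in replicate 1 (limma adjusted p = 0.0372), and its contrast with 1439987_at did not pass (0.28, limma adjusted p = 0.2). Gria4 1440891_at, Grik1 1427676_a_at and Grik3 1440177_at were under the array-wide median, so the sizes of these differences are uncertain.

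Grik5 1418784_at went the other way. Its replicate 1 arrays measured 7.53 to 7.79 log2 intensity and the other 6 measured 7.82 to 8.17, with no overlap, a log2 difference of -0.38 or a ratio of 0.77 (SE 0.08, limma adjusted p = 0.0242). Gria4 1421351_at, Grik2 1425790_a_at and Grik4 1437681_at were also below both others in replicate 1 of each strain, and with Grik5 they made 4 of the 18, where 10.8% of all probe sets did so. None of the 3 passed the test. The replicate number was crossed with the strains, so it entered each strain mean equally. The SE of a strain difference in Gria2 1434146_at was 0.45 on the log2 scale, and 0.10 with the replicate number as a block. Whether the replicate number is that of the stated batches was not given in the labels.

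**Figure D4:**
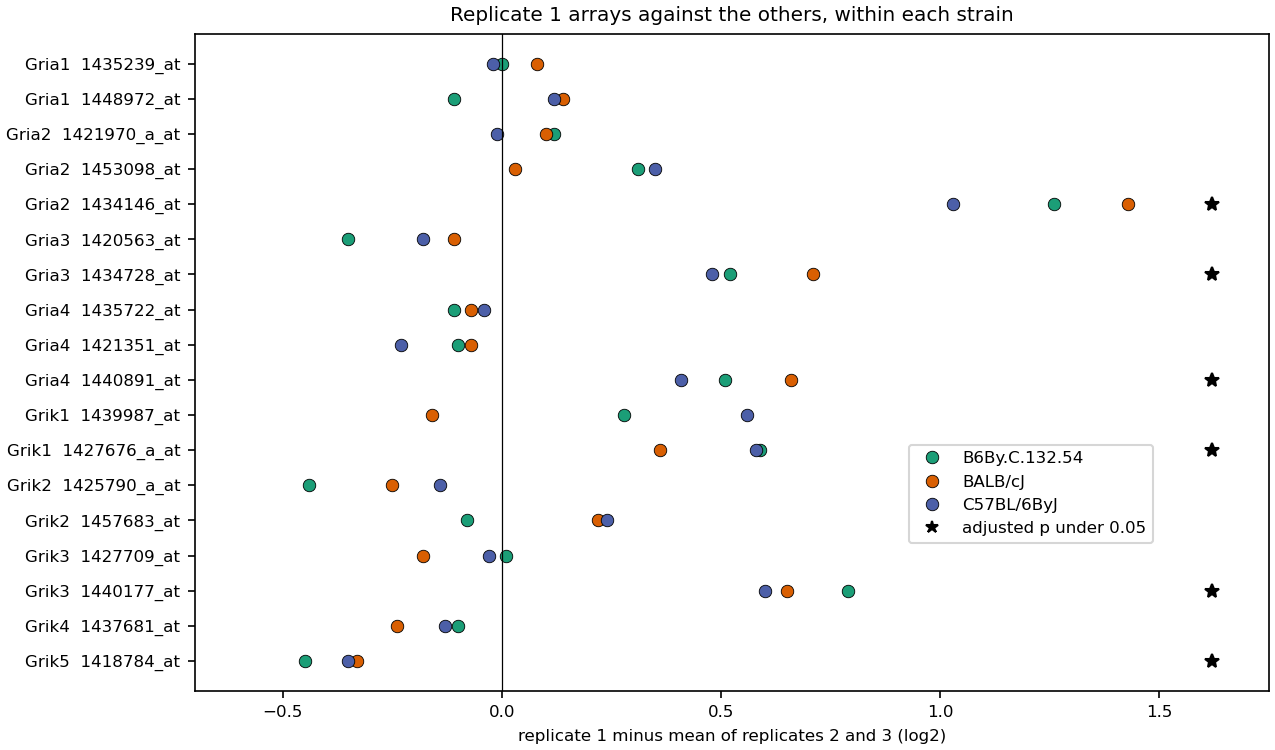
Log2 difference of replicate 1 from the mean of replicates 2 and 3 (x axis) within B6By.C.132.54, BALB/cJ and C57BL/6ByJ (points) for the 18 probe sets (y axis); stars mark an adjusted p under 0.05 with strain in the model. In Gria2 1434146_at all 3 strains lie between 1.03 and 1.43, and in Grik5 between -0.45 and -0.33.

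The partners of the receptors were compared by the brightest probe set of each gene, and of all 18193 genes 1.32% passed between BALB/cJ and C57BL/6ByJ and 1.1% between B6By.C.132.54 and BALB/cJ. None passed in any list between B6By.C.132.54 and C57BL/6ByJ. Of 16 auxiliary and biogenesis proteins of AMPA receptors, among them the transmembrane regulatory proteins (Cacng genes) and the cornichons, 0 passed in any strain pair, with a median log2 difference of -0.06 between BALB/cJ and C57BL/6ByJ. By brightest probe set, Frrs1l and Shisa9 differed most between BALB/cJ and C57BL/6ByJ. Frrs1l, which assists AMPA receptor assembly in the endoplasmic reticulum, differed by -0.39 (limma adjusted p = 0.119). The other Frrs1l probe set, 1437640_at, differed by -0.99 and did not pass (limma adjusted p = 0.19). Shisa9, an auxiliary subunit, differed by -0.36 (limma adjusted p = 0.843), and by 0.18 and -0.14 in its other probe sets. Of 4 partners of kainate receptors, the Neto1 and Neto2 auxiliary subunits and the secreted C1ql2 and C1ql3, 0 passed. C1ql2 differed by -0.21 and C1ql3 by -0.20 on the log2 scale between BALB/cJ and C57BL/6ByJ (limma adjusted p of 0.785 and 0.94).

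Of 12 measured anchoring and trafficking proteins, 0 passed between BALB/cJ and C57BL/6ByJ and 1 passed between B6By.C.132.54 and BALB/cJ. This was Nptx2, a secreted pentraxin that clusters AMPA receptors. Its probe set 1420720_at measured 4.49, 4.64 and 4.62 log2 intensity in B6By.C.132.54, 4.20, 3.94 and 3.93 in BALB/cJ, and 4.22, 4.56 and 4.54 in C57BL/6ByJ, with BALB/cJ lowest. It was higher in B6By.C.132.54 than in BALB/cJ by a log2 difference of 0.56 (limma adjusted p = 0.0411), and the second Nptx2 probe set, 1449960_at, by 0.62 (limma adjusted p = 0.0108). The BALB/cJ means were 4.02 in 1420720_at and 3.66 in 1449960_at, near or under the array-wide median of 3.968. The sizes of these differences are therefore uncertain. Between BALB/cJ and C57BL/6ByJ, 1449960_at differed by -0.46, and its limma adjusted p was 0.0596, or 0.0135 with the replicate number as a block. Arc, which promotes AMPA receptor endocytosis, differed by 0.51 between BALB/cJ and C57BL/6ByJ and did not pass (limma adjusted p = 0.714).

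Epb41l1 encodes protein 4.1N, which links Gria1 to the actin cytoskeleton, and 1 of its 3 probe sets, not the brightest, differed between strains. Probe set 1421090_at measured 6.82, 6.89 and 6.84 log2 intensity in B6By.C.132.54, 8.10, 8.29 and 8.26 in BALB/cJ, and 6.64, 7.03 and 6.77 in C57BL/6ByJ. BALB/cJ was above all other arrays, by 1.40 or 2.64-fold relative to C57BL/6ByJ (SE 0.11, limma adjusted p = 4.45e-05), and B6By.C.132.54 was lower than BALB/cJ by a log2 difference of -1.37 (limma adjusted p = 5.51e-05). The brightest probe set, 1434575_at, differed by -0.17 between BALB/cJ and C57BL/6ByJ (limma adjusted p = 0.847), and the contrast of 1421090_at with the other Epb41l1 probe sets passed (1.38, limma adjusted p = 2.8e-05).

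Of the 3 adenosine deaminases that edit RNA, 0 passed. Adarb2, a brain member without known catalytic activity, differed by 0.47 between BALB/cJ and C57BL/6ByJ in probe set 1458112_at (limma adjusted p = 0.137, or 0.0326 with the replicate number as a block). The other Adarb2 probe sets differed by -0.38 (1421300_at) and -0.32 (1458670_at) and did not pass, and the contrast of 1458112_at with them passed (0.82, limma adjusted p = 0.00849). Adar differed by 0.04. The delta receptor subunit Grid1 differed by -0.06. Of 6 NMDA receptor subunits, the related glutamate receptors that detect coincident activity, Grin2b 1457003_at passed. It measured 6.43, 6.48 and 6.34 log2 intensity in B6By.C.132.54, 5.52, 5.12 and 5.58 in BALB/cJ, and 6.39, 6.70 and 6.45 in C57BL/6ByJ. BALB/cJ lay below the other strains, by a log2 difference of -1.11 from C57BL/6ByJ (limma adjusted p = 0.000914), and B6By.C.132.54 was 1.01 above BALB/cJ (limma adjusted p = 0.00191). The other Grin2b probe sets differed by -0.74 (1422223_at), 0.23 (1431700_at) and -0.03 (1442370_at) between BALB/cJ and C57BL/6ByJ and did not pass. The contrast of 1457003_at with them passed (-0.93, limma adjusted p = 0.019). Grin3a differed by -0.27 between BALB/cJ and C57BL/6ByJ (limma adjusted p = 0.527).

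**Figure D5:**
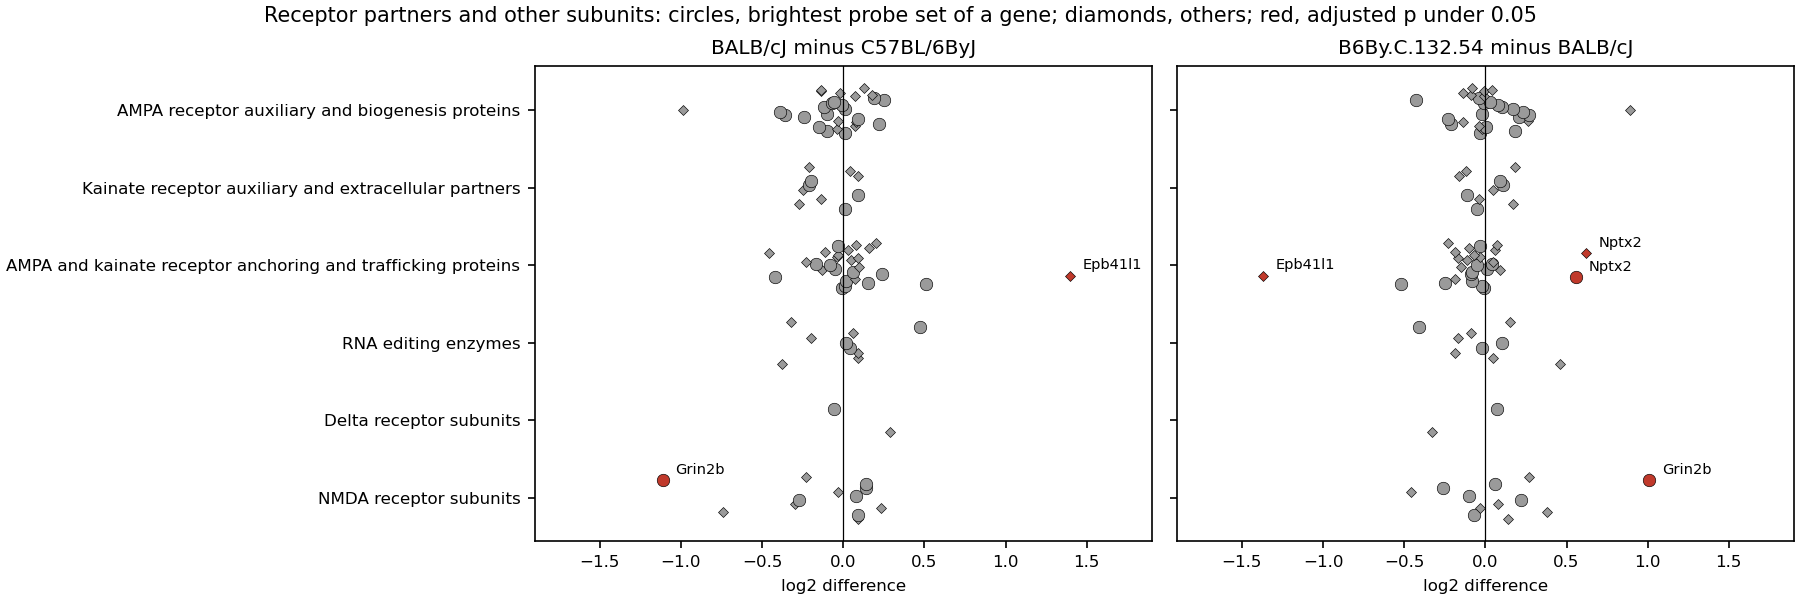
Log2 differences (x axis) of BALB/cJ from C57BL/6ByJ (left) and of B6By.C.132.54 from BALB/cJ (right) for the partners of the receptors and the other glutamate receptor subunits, by list (y axis); circles are the brightest probe set of a gene, diamonds its others, and red marks an adjusted p under 0.05. The labelled probe sets passed: Grin2b at -1.11 and Epb41l1 at 1.40 on the left, and Nptx2, Grin2b and Epb41l1 on the right.

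Markers of cell types were measured beside these differences. Of 7 pan-neuronal and 7 interneuron markers, 0 passed in any strain pair. The summed intensity of the interneuron list ran over 1855.2 to 2133.6 in B6By.C.132.54, 1837.5 to 2182.8 in BALB/cJ and 1936.4 to 2171.9 in C57BL/6ByJ. This sum mainly follows its brightest genes, Sst, Gad1 and Pvalb. Between BALB/cJ and C57BL/6ByJ, log2 differences of the 7 interneuron genes ran from -0.55 to 0.11 (median 0.01). Vip was the lowest (limma adjusted p = 0.325, or 0.0554 with the replicate number as a block). Of 4 markers of cortical excitatory neurons, Slc17a7, the vesicular glutamate transporter, was lower in BALB/cJ than in C57BL/6ByJ (-1.45, limma adjusted p = 0.00272). It was higher in B6By.C.132.54 than in BALB/cJ (1.24, limma adjusted p = 0.0088). Tbr1 (0.02), Cux2 (0.06) and Neurod6 (-0.40, limma adjusted p = 0.872) did not pass between BALB/cJ and C57BL/6ByJ. Tbr1 averaged 3.08 log2 intensity, under the array-wide median, where signal is hard to tell from background. Neurod6 averaged 3.97, near that median, and was 0.74 higher in replicate 1 (limma adjusted p = 0.000686). With the replicate number as a block, the limma adjusted p of its strain difference was 0.0616. The summed list, which follows Slc17a7 as its brightest gene, ran over 270.16 to 403.17 in B6By.C.132.54, 170.71 to 222.06 in BALB/cJ and 333.6 to 394.3 in C57BL/6ByJ. Glial and vascular genes were counted by brightest probe set. Between BALB/cJ and C57BL/6ByJ, 1 of 5 astrocyte genes passed (Gfap, 0.92, limma adjusted p = 0.00393). So did 1 of 5 microglial genes (C1qb, -0.75, limma adjusted p = 0.0193). Of 3 endothelial genes 1 passed (Cldn5, -0.54, limma adjusted p = 0.0466). In the astrocyte gene Slc1a2, the brightest probe set differed by -0.03 and 1439940_at by 1.80 (limma adjusted p = 0.00138). Between B6By.C.132.54 and BALB/cJ, 1439940_at differed by -2.01 (limma adjusted p = 0.000653). Gfap (-0.71, limma adjusted p = 0.0238) and 1 microglial gene (0.88, limma adjusted p = 0.00674) passed there too. The part of these markers in the Grik1 difference was not tested.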

How the data were processed

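The deposited table gives a linear intensity for each probe set on each array. Per the submitters' processing notes GCOS and RMA were used, without versions; background treatment and scaling are not given in the sources used here. From the 45101 probe sets, 64 controls were left out, and log2 of the deposited intensity was taken with no pseudocount, filter or further normalization. By the platform annotation 34945 probe sets had 1 gene, 932 several and 9160 none; 34741 of the first matched RefSeq (GRCm38.p6), used for symbols and chromosomes. All 9 arrays entered 1 limma 3.58.1 fit in R 4.3.3 with strain means as coefficients (lmFit, eBayes, 6 residual degrees of freedom, prior 4.823), two-sided, with Benjamini-Hochberg adjustment over 45037 probe sets at 0.05; SE and 95% intervals are from this fit, and SD is over 3 arrays. Within-gene contrasts set each probe set against the mean of the other probe sets of its gene on the same array, for 25762 probe sets. The models were tested on simulated data, and the number of arrays limits precision.

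Replicate numbers come from the sample titles. Deviations from strain means correlated at 0.147 to 0.542 over all probe sets in the 9 pairs of arrays with the same number and at -0.458 to 0.153 in the 18 pairs with different numbers, so the numbers were taken to pair the arrays, and a fit with the replicate block was run as an alternative. The other alternatives were quantile normalization, centring on the array median, leaving out dim probe sets, other eBayes settings, a pseudocount of 16, only the strains compared and leaving out each array.

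The receptor genes, the lists and the comparison by replicate number were chosen with earlier results of these data known. Values on all arrays are printed for the brightest probe set of each gene and for probe sets that passed, and for others taken up after their values were seen. Of the partner lists, genes with a probe set that passed are named. So are the 2 genes per list whose brightest probe set had the largest difference between BALB/cJ and C57BL/6ByJ. Of the marker lists, genes whose brightest probe set passed between BALB/cJ and C57BL/6ByJ are named, with those of the cortical list and those set beside the tissue label. Slc1a2, Vip and the brightest interneuron genes were added after their values were seen. For Grik1 1439987_at the 3 genes with the smallest root mean square difference of centred profiles are named.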

Additional observations from a re-analysis of the deposited data

How the results depend on the processing

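With the replicate block, within-gene contrasts called numbered 609 against 373 between BALB/cJ and C57BL/6ByJ and 577 against 375 between B6By.C.132.54 and BALB/cJ; among the 18 subunit probe sets it changed no call. With a pseudocount of 16, 0 subunit probe sets passed for BALB/cJ against C57BL/6ByJ and 0 for B6By.C.132.54 against BALB/cJ, where Grik1 1439987_at differed by 0.45 (limma adjusted p = 0.107). Restricted to the strains compared, the Grik1 contrast between B6By.C.132.54 and BALB/cJ had a limma adjusted p of 0.0508. With dim probe sets left out, 3 instead of 6 were called by replicate number, since that setting removes 4 dim subunit probe sets.

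Leaving out 1 array, calls between BALB/cJ and C57BL/6ByJ ranged from 410 (without C57BL/6ByJ replicate 2) to 706 beside 644, and within-gene calls from 248 (without the same array) to 411. Between B6By.C.132.54 and BALB/cJ they ranged from 391 to 514 beside 575, within-gene calls from 242 (without BALB/cJ replicate 2) to 363, and subunit calls from 0 to 1.

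Directions that turned belong to differences that did not pass, and the cause was not tested. Fits without 1 array had no replicate block, so the strains in them no longer held the same replicate numbers. Between BALB/cJ and C57BL/6ByJ, Gria2 1421970_a_at was 0.04 after quantile normalization, and Grik1 1427676_a_at was -0.02 after quantile normalization, -0.01 after centring and -0.00021 with the pseudocount. The Grik1 contrast between B6By.C.132.54 and C57BL/6ByJ was -0.01 with the pseudocount. Leaving out 1 array gave, between BALB/cJ and C57BL/6ByJ, -0.04 to 0.03 for Gria2 1421970_a_at, -0.68 to 0.14 for Gria2 1434146_at, -0.27 to 0.09 for Gria4 1440891_at, -0.16 to 0.21 for Grik1 1427676_a_at and -0.25 to 0.17 for Grik3 1440177_at. Between B6By.C.132.54 and C57BL/6ByJ it gave -0.21 to 0.01 for Gria2 1453098_at, -0.62 to 0.14 for Gria2 1434146_at, -0.13 to 0.04 for Gria4 1421351_at, -0.22 to 0.08 for Grik1 1439987_at, -0.39 to 0.08 for Grik1 1427676_a_at, -0.09 to 0.04 for Grik2 1457683_at, -0.10 to 0.17 for Grik5, -0.06 to 0.34 for the Gria1 contrast and -0.16 to 0.22 for the Grik1 contrast. Between B6By.C.132.54 and BALB/cJ it gave -0.42 to 0.48 for Gria2 1434146_at, -0.06 to 0.17 for Gria3 1420563_at, -0.24 to 0.17 for Gria3 1434728_at, -0.29 to 0.10 for Gria4 1440891_at, -0.40 to 0.06 for Grik1 1427676_a_at and -0.46 to 0.02 for Grik3 1440177_at.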
